A study of Mus musculus with 6 samples.

Results

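Transcripts of 8 scavenger receptor genes (Marco, Msr1, Cd36, Olr1, Cd163, Cd68, Scarb1 and Scarb2) were followed in cells of mouse bronchoalveolar lavage fluid, the saline wash of airways and alveoli. The genes were picked by symbol, as members of 1 functional class, from a table of 22800 genes, and all 8 reached the level required for testing. They were chosen with earlier results of these data known, so counts of members called are descriptions only. RNA sequencing covered 3 libraries from mice given vehicle (replicates 2, 3 and 4) and 3 from mice injected intraperitoneally with sulfatide, 20 µg each (replicates 1, 2 and 3). Sulfatide is a sulfated glycolipid presented on CD1d to a subset of natural killer T cells (type II NKT cells), and the series title places the comparison in work on lung ischemia and reperfusion. The strain, age and sex of the mice, the time after injection and whether these mice had undergone ischemia are not stated in the labels. Whether each library is a different animal is not stated either, so p-values here reflect the spread among these libraries, which could be technical.

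Scavenger receptors are surface or lysosomal glycoproteins that bind polyanionic and lipid ligands, among them oxidized lipoproteins, dying cells, bacteria and haemoglobin complexes, and carry them into the cell. Class A receptors (Msr1, Marco) have a collagen-like stalk, class B receptors (Cd36, Scarb1, Scarb2) are anchored in the membrane at both ends, and classes D (Cd68), E (Olr1) and I (Cd163) have mucin-like, lectin-like and cysteine-rich ectodomains. In the lung, alveolar macrophages use Marco to take up inhaled particles and bacteria, and Cd36 takes part in their uptake of surfactant lipid and dying cells.

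In these libraries sulfatide went with less transcript of the lectin-like receptor Olr1 (4.37-fold lower) and more of the lipoprotein receptor Scarb1 (1.58-fold higher). The other 6 genes did not pass the test. Levels below are FPKM (fragments scaled to transcript length and to library total), and log2 fold changes are differences of log2(FPKM + 1), sulfatide minus vehicle, with their standard error. Genes with an adjusted p below 0.05 were called (limma, 2-sided, Benjamini-Hochberg over the 10405 genes tested). So 1 of 8 members was called higher and 1 lower, against 8.31% of all tested genes called higher and 10.4% called lower, or 18.7% in either direction. The median log2 fold change of the 8 was -0.09, and that of all tested genes 0.04. After rescaling to TPM (each library to the same total), 23.4% of all called genes were higher, in place of 44.5%.

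The promoter of Olr1, the member with the largest fall, is shown with those of Marco, the member that varied most within a group, and Cd68, which varied little. Each line is the 250 bases before the RefSeq transcription start (build GRCm38.p6, 5′ to 3′ on the gene's strand). The windows are chr6:129507166-129507415 for Olr1, chr1:120505025-120505274 for Marco and chr11:69666171-69666420 for Cd68, all on the minus strand. Capitals mark the core GAGGAA bound by the macrophage factor PU.1 and the AP-1 motif TGANTCA, on either strand.
Olr1: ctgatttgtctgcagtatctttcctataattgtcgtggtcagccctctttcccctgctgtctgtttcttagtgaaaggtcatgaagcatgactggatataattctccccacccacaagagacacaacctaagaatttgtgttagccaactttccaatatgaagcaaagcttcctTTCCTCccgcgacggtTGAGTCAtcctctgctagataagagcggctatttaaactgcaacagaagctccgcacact
Marco: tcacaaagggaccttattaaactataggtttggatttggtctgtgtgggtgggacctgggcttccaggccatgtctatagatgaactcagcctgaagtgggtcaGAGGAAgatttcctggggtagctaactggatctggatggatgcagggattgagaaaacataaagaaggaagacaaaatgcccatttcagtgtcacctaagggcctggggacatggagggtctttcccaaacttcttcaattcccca
Cd68: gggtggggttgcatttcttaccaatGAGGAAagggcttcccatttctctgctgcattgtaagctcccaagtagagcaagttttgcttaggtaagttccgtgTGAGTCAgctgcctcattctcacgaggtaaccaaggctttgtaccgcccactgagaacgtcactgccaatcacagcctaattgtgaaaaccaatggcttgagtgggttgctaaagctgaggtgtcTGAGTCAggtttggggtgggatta
The Olr1 window held an AP-1 match beginning 60 bases before the start and a PU.1 core, on the other strand, beginning at 76 bases. Marco held a PU.1 core at 146 bases. Cd68, whose level did not differ detectably, held a PU.1 core at 225 bases and AP-1 matches at 149 and 24 bases. Of 32851 promoter windows of this length, 23.3% held GAGGAA and 6.75% held TGANTCA on either strand. Neither TATAAA (12.4% of windows) nor the NF-kappaB consensus (7.25%) was found in these 3 windows, and the marked matches do not overlap each other. Of the 6 members with a RefSeq window, only the 3 printed held a PU.1 core or an AP-1 match. The windows of Cd36, Cd163 and Scarb2 held neither. That of Scarb2 held an NF-kappaB match, read on both strands, at 199 bases. The printed windows therefore do not show how common the marked motifs are among the members. The first bases after the RefSeq start were not found in the GENCODE transcripts of Cd36, Cd163 and Cd68. The windows of Cd36 and Scarb2 lay inside the GENCODE span of their genes. All the motif matches describe letters only and show no binding.

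The levels of the 8 genes spanned more than 2 orders of magnitude. In each vehicle library the order was Msr1, Cd68, Cd36, Scarb2, Marco, Scarb1, Olr1 and Cd163. Msr1 and Cd68 together made 67.3 to 73.4% of the FPKM summed over the 8 genes. That sum was 1867 to 2104 in vehicle and 1726 to 2131 in sulfatide, so the groups overlapped. No neighbours in that order had overlapping ranges. In sulfatide libraries the ranges of Msr1 and Cd68 overlapped, and that of Marco overlapped those of Scarb2 and Scarb1. Olr1 and Cd163 changed places: the ratio of Olr1 to Cd163 was 3.58 to 5.17 in vehicle and 0.330 to 0.910 in sulfatide, with Olr1 below Cd163 in all 3 sulfatide libraries, although their ranges over the 3 overlapped. In bulk RNA, fewer cells of a type and less RNA per cell cannot be told apart.

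**Figure D1:**
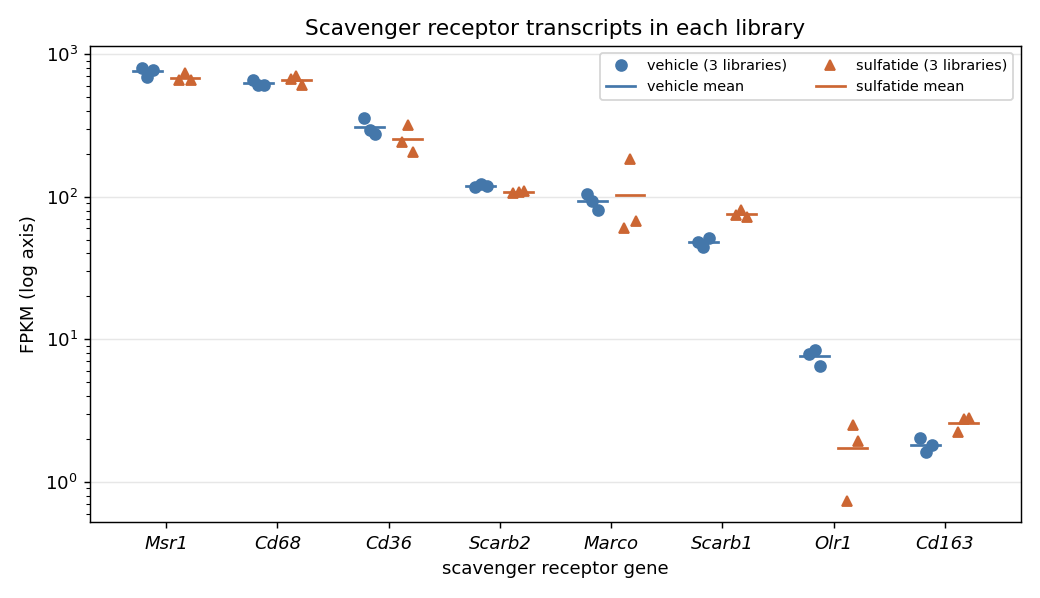
FPKM (log axis) of the 8 scavenger receptor genes, ordered by vehicle mean, with 1 point per library and a line at each group mean (n = 3 each). Olr1 is lower in all 3 sulfatide libraries than in any vehicle library, Scarb1 is higher in all 3, and Marco in sulfatide replicate 2 stands at 183 FPKM above the other 5 libraries.

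Olr1 encodes the lectin-like receptor for oxidized low-density lipoprotein, known from endothelium and from activated macrophages (chromosome 6, 129485244 to 129507165, minus strand, mm10). It was at 7.88, 8.37 and 6.52 FPKM in vehicle replicates 2, 3 and 4, and at 0.740, 2.52 and 1.95 FPKM in sulfatide replicates 1, 2 and 3. The groups did not overlap, and sulfatide replicate 1 was the lowest library. The mean fell from 7.59 ± 0.958 to 1.74 ± 0.909 FPKM (SD, n = 3 each), with a log2 fold change of -1.70 ± 0.24 and a limma adjusted p of 0.00141. The scale understates the difference at this level: with a pseudocount of 0.1 the log2 fold change was -2.21. Olr1 passed under all 14 alternatives run, at limma adjusted p between 0.000233 and 0.0103. It met the filter at 5 FPKM only through the vehicle libraries, where it was high, so that pass is no separate support.

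Olr1 is also listed among alveolar macrophage genes, so marker levels are given beside its fall. The 9 alveolar macrophage markers summed to 56.3 to 83.2 FPKM in vehicle and 31.7 to 57.7 in sulfatide, and 2 of them (Plet1 and Itgax) were called lower. The fall of the sum was that of Plet1, from 39.7 ± 11.1 to 3.39 ± 1.56 FPKM, while Chil3 was at 25.1 ± 5.57 and 31.2 ± 12.6 FPKM and Siglecf at 0.157 ± 0.0929 and 0.790 ± 0.115. Of the 9, 4 were near or at the floor in both groups: Siglecf did not exceed 0.900 and Car4 0.910 FPKM. Fabp1 and Krt79 were listed at 0 in every library. Pparg, Ear2 and Itgax were low too, at no more than 1.17, 3.35 and 5.78 FPKM in any library. So apart from Plet1 and Chil3, these markers were scarce in libraries labelled as lavage cells. Why they were scarce, and whether the cells were alveolar macrophages, was not tested. The 9 general macrophage markers summed to 29965 to 41223 FPKM over all libraries, most of it Lyz2 (25051 to 35891 FPKM), and none of them was called. The 6 endothelial markers summed to 1.31 to 1.68 FPKM in vehicle and 1.04 to 1.16 in sulfatide, and none exceeded 0.740 FPKM in any library. The part of these marker levels in the Olr1 result was not tested.

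Scarb1 encodes the class B receptor for high-density lipoprotein, which exchanges cholesterol with the cell (chromosome 5, 125277087 to 125341094, minus strand). Vehicle replicates 2, 3 and 4 were at 48.0, 44.3 and 51.2 FPKM, and sulfatide replicates 1, 2 and 3 at 73.9, 81.3 and 72.1 FPKM. All 3 sulfatide libraries lay above all vehicle libraries. The mean rose from 47.8 ± 3.44 to 75.7 ± 4.88 FPKM (SD, n = 3 each; log2 fold change 0.65 ± 0.09, limma adjusted p = 0.00152). It passed under all 14 alternatives, at adjusted p between 0.000349 and 0.0107, and its log2 fold change ranged from 0.54 (rescaled to TPM) to 0.72 over them.

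The other class B genes did not pass. Cd36, a fatty acid and oxidized lipid receptor (chromosome 5, 17781690 to 17888801, minus strand), was at 359, 295 and 273 FPKM in vehicle and at 244, 319 and 205 FPKM in sulfatide. The groups overlapped, with sulfatide replicate 2 above 2 of the 3 vehicle libraries. The log2 fold change was -0.29 ± 0.16 (limma adjusted p = 0.246), and its 95% interval ran from -0.65 to 0.08, a fold of 0.636 to 1.06. With array weights, which give each library its own weight, Cd36 passed (log2 fold change -0.53, adjusted p = 0.0194). Cd36 is also abundant in adipocytes, endothelium and platelets. The 4 adipocyte markers summed to at most 0.05 FPKM in any library. The 6 platelet markers summed to 519 to 1089 FPKM in vehicle and 699 to 1012 in sulfatide, nearly all of it Pf4, which macrophages can express too, and none of the 6 was called.

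Scarb2 encodes an abundant membrane protein of lysosomes (chromosome 5, 92441314 to 92506833, minus strand). It was at 118, 123 and 119 FPKM in vehicle and at 107, 108 and 110 FPKM in sulfatide. The groups did not overlap, and the libraries of each group lay close together. The log2 fold change was -0.14 ± 0.07 (limma adjusted p = 0.206, 95% interval -0.31 to 0.02). Rescaled to TPM, Scarb2 was called lower (log2 fold change -0.25, adjusted p = 0.0339). The ratio of Scarb1 to Cd36 was 0.134 to 0.187 in vehicle and 0.255 to 0.352 in sulfatide, and that of Scarb1 to Scarb2 0.362 to 0.431 and 0.657 to 0.751.

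**Figure D2:**
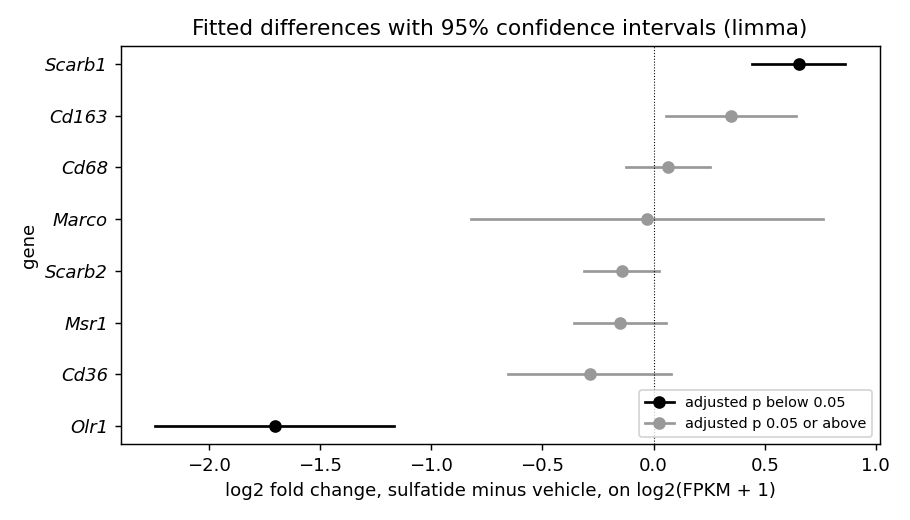
Log2 fold change of the 8 genes, sulfatide minus vehicle on log2(FPKM + 1), with 95% confidence intervals from limma; black marks an adjusted p below 0.05. The intervals of Olr1 (-2.24 to -1.17), Scarb1 (0.44 to 0.86) and Cd163 (0.06 to 0.64) exclude 0. Cd163 was not called, as its p was adjusted over all genes tested and its interval was not. The interval of Marco (-0.82 to 0.76) is the widest.

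Msr1, the macrophage scavenger receptor of class A that takes up acetylated and oxidized lipoprotein, had the highest mean of the 8 in both groups (chromosome 8, 39581685 to 39642673, minus strand). It was at 805, 689 and 779 FPKM in vehicle and at 654, 734 and 659 FPKM in sulfatide. Sulfatide replicate 2 lay above the lowest vehicle library, so the groups overlapped. The log2 fold change was -0.15 ± 0.09 (limma adjusted p = 0.280, 95% interval -0.36 to 0.06). Array weights gave -0.23 and an adjusted p of 0.0372.

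Marco, the class A receptor with collagenous structure, differed most in 1 library (chromosome 1, 120474538 to 120505024, minus strand). Vehicle replicates 2, 3 and 4 were at 104, 93.9 and 81.2 FPKM. Sulfatide replicates 1 and 3 were at 59.96 and 67.7 FPKM, below every vehicle library, and sulfatide replicate 2 was at 183 FPKM, above every one. The means were 93.1 ± 11.5 and 103 ± 68.7 FPKM (SD, n = 3 each; log2 fold change -0.03 ± 0.35, limma adjusted p = 0.963). Without sulfatide replicate 2 Marco was called lower (log2 fold change -0.53, adjusted p = 0.0263). The sign of the change was positive without vehicle replicate 2, sulfatide replicate 1 or sulfatide replicate 3, and after quantile normalization.

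Sulfatide replicate 2 was 2.86 times the mean of the other sulfatide libraries for Marco. Among the 7970 tested genes with a mean of at least 5 FPKM, 10 (0.125%) were at least 2 times both other sulfatide libraries in replicate 2, and Marco was one of them. The SD of Marco among sulfatide libraries, 0.87 on the log2 scale, was larger than that of 99.9% of tested genes, and the SD of Olr1, 0.53, larger than that of 99.0%. In vehicle the SDs of these genes were 0.18 and 0.17, larger than those of 67.7% and 63.2% of tested genes. Scarb2 had little spread in both groups, with 3.70% of tested genes below it in vehicle and 1.65% in sulfatide. Sulfatide replicate 2 was the highest sulfatide library for 6 of the 8 members (all but Cd163 and Scarb2), and for 35.0% of tested genes.

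By the smallest root mean square difference of log2 levels centred over the 6 libraries, the genes most like Marco were Gclc, which makes a subunit of the glutathione-synthesizing ligase (0.24), S100a9, a calcium-binding protein of neutrophils and monocytes (0.24), and the chitinase-like gene Chil3 (0.26). The median difference from Marco over all candidates was 0.55. Chil3 was at 30.5, 25.5 and 19.3 FPKM in vehicle and 21.9, 45.6 and 26.2 in sulfatide, highest in sulfatide replicate 2 as Marco was. The 6 monocyte markers, which include Chil3, summed to 49.3 to 68.5 FPKM in vehicle and to 43.8, 79.4 and 62.9 in sulfatide replicates 1, 2 and 3, and none was called. The 9 neutrophil markers summed to 132 to 181 FPKM in vehicle and 404, 563 and 487 in the sulfatide libraries. S100a8, which made most of the rise of the sum (105 ± 11.7 to 419 ± 55.3 FPKM), and Mmp8 were called higher. S100a9 was at 21.9 ± 7.61 and 21.2 ± 12.6 FPKM and Camp at 5.12 ± 0.826 and 3.46 ± 0.387 FPKM, and neither was called. The defining neutrophil genes Ly6g and Cxcr2 were under 1 FPKM in each library. The part of either marker sum in the level of Marco was not tested.

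Genes most like Olr1 in pattern were Lad1 (0.17), Rasgef1b (0.19) and Malt1 (0.20), the last a protease of NF-kappaB signalling, against a median of 0.94 over all candidates. Each was called lower, with log2 fold changes of -1.80, -1.97 and -1.69. Those most like Scarb1 were the tyrosine phosphatase Ptpn1 (0.02), Sirpb1b (0.05) and the galactosyltransferase Ggta1 (0.06), against a median of 0.35. Each was called higher, with log2 fold changes of 0.67, 0.69 and 0.64. Sirpb1b belongs to a family of close copies, so the split of fragments among them is uncertain. These likenesses are descriptions over 6 libraries, and the genes were chosen for them.

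**Figure D3:**
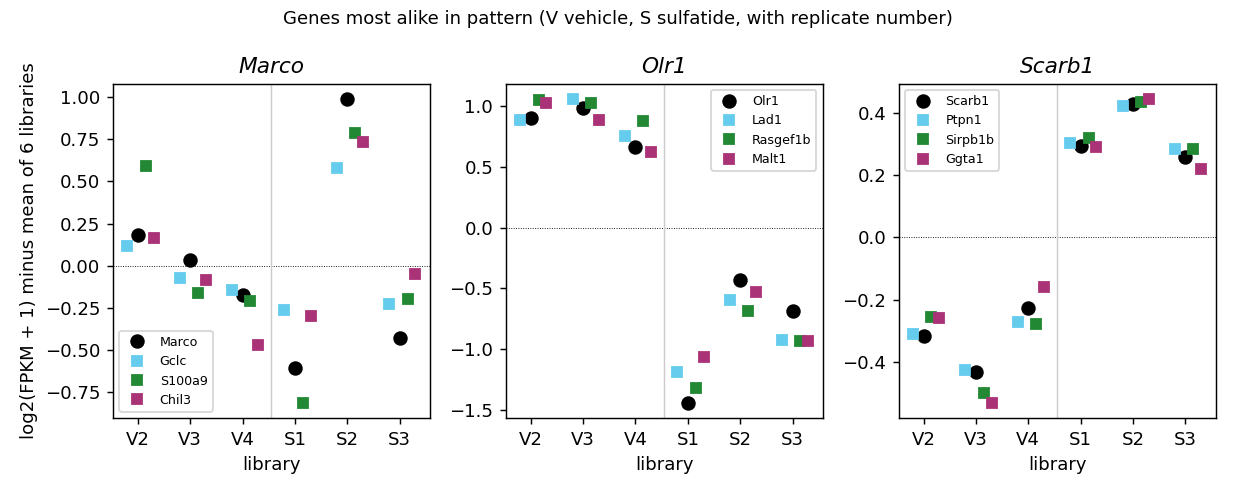
Log2(FPKM + 1) minus the mean of the 6 libraries for Marco, Olr1 and Scarb1 (black circles) and the 3 genes most alike to each (coloured squares), by library, with vehicle libraries left of the line. Marco and its 3 genes are highest in sulfatide replicate 2, whereas the Olr1 and Scarb1 panels separate the groups.

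Cd68, a heavily glycosylated protein of late endosomes and lysosomes used as a macrophage marker, lies on chromosome 11 (69664213 to 69666153, minus strand). It was at 660, 612 and 612 FPKM in vehicle and at 664, 701 and 609 FPKM in sulfatide. The groups overlapped, and the highest library was only 1.15 times the lowest. The log2 fold change was 0.07 ± 0.08 (limma adjusted p = 0.616, 95% interval -0.12 to 0.26), and its sign turned after rescaling to TPM (-0.05) and with array weights (-0.02).

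Cd163, the receptor that clears haptoglobin-haemoglobin complexes, was the least abundant in vehicle (chromosome 6, 124304656 to 124330527, plus strand). It was at 2.04, 1.62 and 1.82 FPKM in vehicle and at 2.24, 2.77 and 2.80 FPKM in sulfatide. All sulfatide libraries lay above all vehicle libraries, 1.43-fold on average. The log2 fold change, 0.35 ± 0.13, did not pass (limma adjusted p = 0.0908, and 0.0509 to 0.233 over 13 alternatives). Groups did not overlap for 4 of the 8 members (Olr1, Scarb1, Scarb2 and Cd163), of which limma called 2, against 18.7% of tested genes called in either direction. No overlap was seen for 37.0% of all tested genes.

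**Figure D4:**
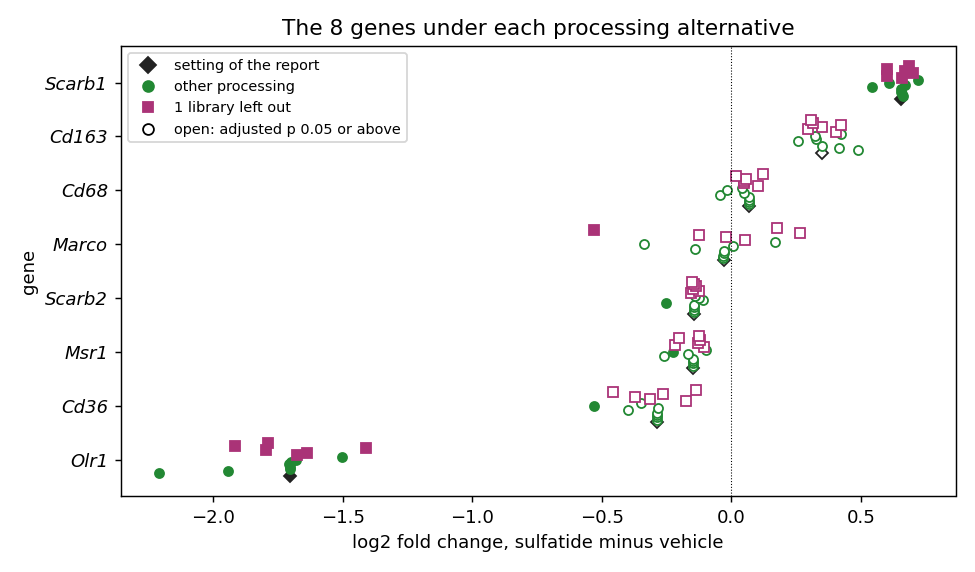
Log2 fold change of each gene as reported (diamonds), under 8 other ways of processing (circles) and with 1 library left out in turn (squares); filled symbols have an adjusted p below 0.05. Olr1 and Scarb1 are filled throughout, and Marco is filled only without sulfatide replicate 2, at -0.53.

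Of 22 further scavenger receptor genes, 10 were tested, 1 was called higher and 3 lower, against 8.31% and 10.4% of all tested genes (median log2 fold change -0.17, against 0.04 for all tested genes). Over libraries left out, 3 to 5 were called. This list was chosen with earlier results of these data known, so its count is not a result about the list. The mannose receptor Mrc1 was higher (11.1 ± 3.09 to 29.7 ± 4.03 FPKM, limma adjusted p = 0.00143). Dendritic cells also express it, and the 6 dendritic cell markers summed to 0.590 to 0.700 FPKM in vehicle and 1.86 to 2.97 in sulfatide. Of these only Cd209a was called, with 0 in every vehicle library and 2.36, 1.19 and 2.59 FPKM in sulfatide replicates 1, 2 and 3, and the other 5 were under 1 FPKM in each library. Cd209a reached the level required for testing only through the sulfatide libraries, where it was high, so its call is no separate support. The part of the dendritic cell markers in the Mrc1 result was not tested. The hyaluronan receptor Cd44 was lower (81.1 ± 3.91 to 44.6 ± 4.29 FPKM, 0.000444), as were the endotoxin co-receptor Cd14 (3657 ± 69.6 to 2360 ± 167 FPKM, 0.00112) and the class F receptor Scarf1 (37.8 ± 5.73 to 25.0 ± 1.19 FPKM, 0.0121). Scarf1 did not pass without vehicle replicate 2 (0.0561). Clec7a, the beta-glucan receptor of class E beside Olr1, was at 35.2 ± 6.13 and 20.9 ± 8.18 FPKM (adjusted p = 0.0676, but 0.0333 without sulfatide replicate 2, 0.0494 rescaled to TPM and 0.0143 with array weights). The large endocytic receptor Lrp1 was at 37.2 ± 1.34 and 46.4 ± 5.62 FPKM (0.0709, but 0.0421 after quantile normalization and 0.0202 with array weights). Stab1, a class H receptor, was at 152 ± 4.27 and 152 ± 7.76 FPKM (0.980).

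Haptoglobin, the plasma protein whose complex with haemoglobin Cd163 binds, was called higher (Hp, 483 ± 66.1 to 2040 ± 83.5 FPKM, limma adjusted p = 1.58e-05). Of 13 tested genes of haemoglobin and heme clearance, 2 were called higher and 1 lower, a share near the 18.7% of all tested genes called in either direction (median log2 fold change -0.00). The biliverdin reductase Blvra was higher (96.3 ± 6.66 to 126 ± 5.64 FPKM, 0.0156), and did not pass without vehicle replicate 2 (0.0794), sulfatide replicate 1 (0.0535) or sulfatide replicate 3 (0.0711). The protease Adam17 was lower (177 ± 4.78 to 118 ± 14.7 FPKM, 0.00393). The heme oxygenase Hmox1 was at 1875 ± 263 and 1428 ± 390 FPKM (0.140, but 0.0168 without sulfatide replicate 2 and 0.00859 with array weights). Cd5l, a secreted protein of the same cysteine-rich family as Cd163, was at 23.1 ± 4.95 and 21.9 ± 3.35 FPKM (0.833).

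Genes that handle lipid after its uptake were called in both directions, 4 higher and 4 lower of 18 tested, against 8.31% and 10.4% of all tested genes (median log2 fold change -0.01). The lipoprotein lipase gene Lpl (618 ± 102 to 234 ± 22.0 FPKM, limma adjusted p = 0.000173), the acyl-CoA synthetase Acsl1 (193 ± 21.2 to 92.5 ± 22.3 FPKM, 0.00215) and the lysosomal cholesterol carrier Npc2 (3227 ± 295 to 2285 ± 135 FPKM, 0.00789) were among those lower. The fatty acid carrier Fabp5 (384 ± 15.6 to 892 ± 57.6 FPKM, 4.66e-05), the triglyceride synthase Dgat2 (17.95 ± 0.897 to 28.9 ± 6.59 FPKM, 0.0253), the lipid droplet protein Plin2 (1842 ± 242 to 2510 ± 204 FPKM, 0.0261) and the cholesterol esterifying enzyme Soat1 (95.8 ± 6.55 to 125 ± 11.1 FPKM, 0.0265) were higher. The cholesterol exporter Abca1 was at 5.04 ± 1.62 and 5.45 ± 1.42 FPKM (0.771). Without vehicle replicate 2, Dgat2 (0.0759), Plin2 (0.0821) and Soat1 (0.104) did not pass, and the list had 1 gene called higher and 3 lower. Without sulfatide replicate 3, Plin2 (0.0985) and Soat1 (0.0874) did not pass, and the list had 2 higher and 3 lower. All genes called also varied over libraries left out, from 910 to 2532, so these list counts are not results about the list. Without sulfatide replicate 2, Dgat2 (0.0665), Plin2 (0.0566) and Soat1 (0.0623) did not, nor did Dgat2 without sulfatide replicate 1 (0.0795) or vehicle replicate 4 (0.0804). Rescaled to TPM, Plin2 (0.0799) and Soat1 (0.0969) did not, nor Plin2 after quantile normalization (0.165).

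Of 14 tested co-receptors and signalling partners of scavenger receptors, 6 were called lower and 1 higher, against 10.4% and 8.31% of all tested genes. Their median log2 fold change was -0.24, against 0.04 for all tested genes. Over libraries left out, 5 to 8 of them were called, while all genes called varied from 910 to 2532. The list was also chosen with earlier results of these data known, so its count is not a result about the list. The caveolar protein Cav1 (494 ± 59.9 to 124 ± 52.7 FPKM, limma adjusted p = 0.000682), the Toll-like receptor Tlr2 (413 ± 81.2 to 209 ± 10.6 FPKM, 0.00154), the tetraspanin Cd9 (520 ± 70.7 to 318 ± 23.1 FPKM, 0.00239) and the kinase Syk (139 ± 20.9 to 76.6 ± 12.6 FPKM, 0.00346) were lower. Vav1, an exchange factor of the cytoskeleton, was higher (191 ± 9.67 to 250 ± 16.4 FPKM, 0.0143). Vav1 did not pass without vehicle replicate 2 (0.0554), sulfatide replicate 1 (0.0575) or sulfatide replicate 3 (0.0644).

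Of 12 tested transcription factors known to act on scavenger receptor genes, 2 were called lower and none higher, a share near the 18.7% of all tested genes called in either direction (median log2 fold change -0.15). Cebpb fell from 1249 ± 153 to 865 ± 101 FPKM (limma adjusted p = 0.0146), and did not pass without sulfatide replicate 1 (0.0503) or 3 (0.0590). Maf was at 44.2 ± 17.2 and 18.0 ± 6.71 FPKM (0.0316), and did not pass without vehicle replicate 2 (0.129) or 4 (0.107) or sulfatide replicate 1 (0.0898) or 3 (0.0839). So without sulfatide replicate 1 or 3 the count of called factors was 0, without vehicle replicate 2 it was 1 and without sulfatide replicate 2 it was 4. All genes called varied too, from 910 to 2532 over libraries left out. Pparg, which drives Cd36 transcription, was at 1.03 ± 0.135 and 0.893 ± 0.341 FPKM (0.655).

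Of 10 tested lysosomal genes, 1 was called higher and none lower, against 8.31% and 10.4% of all tested genes (median log2 fold change 0.05). The tetraspanin Cd63 was higher (1708 ± 78.7 to 2285 ± 246 FPKM, limma adjusted p = 0.0201). It did not pass without vehicle replicate 2 (0.101), sulfatide replicate 1 (0.0588) or sulfatide replicate 3 (0.0839), or after quantile normalization (0.101), and the count of called genes was then 0. Without vehicle replicate 3 the count was 2. Over libraries left out, all genes called varied as well, from 910 to 2532.

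**Figure D5:**
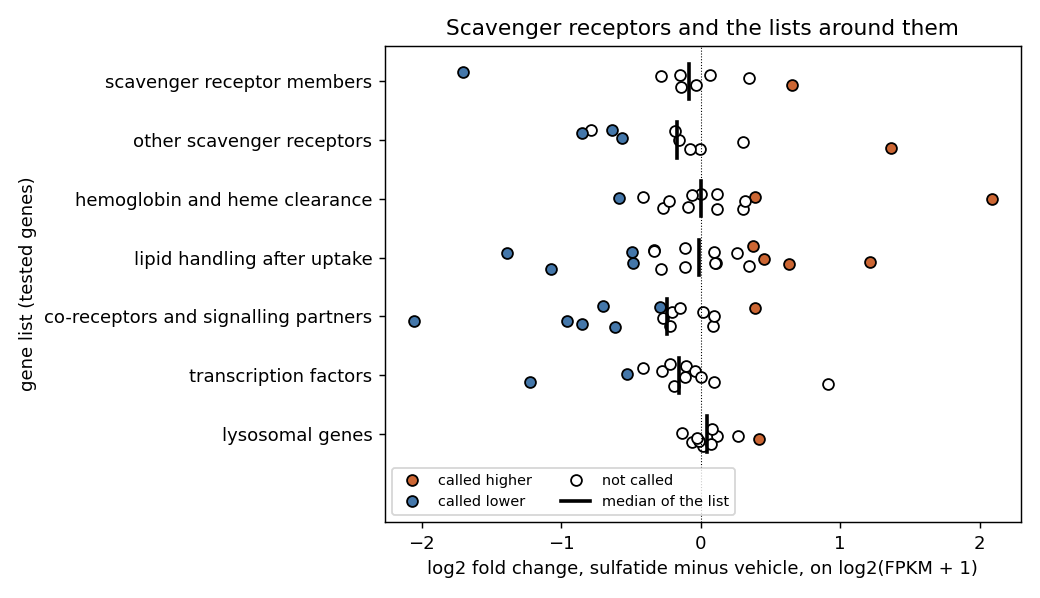
Log2 fold change of each tested gene (points) in the 8 scavenger receptors and 6 lists around them, sulfatide minus vehicle on log2(FPKM + 1), coloured where called, with a bar at each list's median. Medians lie between -0.24 (co-receptors and signalling partners) and 0.05 (lysosomal genes).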

How the data were processed

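Per the labels' protocols, RNA was poly(A)-selected and strand-specific libraries were read as paired ends. Per the submitters' processing notes, reads were placed on mm10. Which aligner, counter and annotation were used, and if counts were stranded, is not given in the sources used here. The authors deposited FPKM with 2 decimals for 22800 symbols. A further 3 value columns matched no sample and were not used. FPKM summed to 1126779 to 1168474 in vehicle and 1217971 to 1249691 in sulfatide libraries, and 10254 to 10350 genes reached 1 FPKM in each. Absolute depth is unknown. Relative to vehicle replicate 2, the most frequent ratio of low FPKM values put depth at 0.850 (sulfatide replicate 3) to 1.21 (sulfatide replicate 2).

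Groups and replicate numbers came from the titles. Values were analysed as log2(FPKM + 1) for genes at 1 FPKM or more in at least 3 libraries, with limma 3.58.1 in R 4.3.3 (lmFit, eBayes with trend), 2-sided, adjusted by Benjamini-Hochberg over all 10405 genes. The code was tested on simulated data. An exact permutation test of 3 against 3 cannot go below a p of 0.1 and was not used. Folds are ratios of mean FPKM. The members and the gene lists were chosen with earlier results of these data known. Named are all members, called genes of each list (where over 6, the 4 with the smallest p in each direction), a fixed set (Mrc1, Cd14, Clec7a, Lrp1, Cd44, Stab1, Hp, Hmox1, Abca1, Lpl, Pparg and Cd5l) and the 3 genes most like Marco and each called member; markers named with a level were chosen after their values were seen. Some genes that this rule names are not reported here. Alternatives were other pseudocounts (0.1, 0.5), filters (none, 5 FPKM), TPM, quantile normalization, array weights, the replicate number as a block and each library left out. Gene positions are from GENCODE on mm10, and no exon of another gene overlaps an exon of the 8 genes. Promoters come from RefSeq, which matched 6 of the 8.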

Additional observations from a re-analysis of the deposited data

How the results depend on the processing

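Olr1 and Scarb1 kept their direction and passed under all 14 alternatives, with log2 fold changes of -1.92 to -1.41 and 0.60 to 0.70 when 1 library was left out. Olr1 met the filter at 5 FPKM only through the vehicle libraries, so that pass is no separate support. Cd163 kept its direction and did not pass under the 13 alternatives that tested it (a filter at 5 FPKM removed it). Marco reversed after quantile normalization (0.00726), with a replicate block (0.17) and over libraries left out (-0.53 to 0.26). Cd68 reversed after rescaling to TPM (-0.0455) and with array weights (-0.0185). Msr1 (-0.23) and Cd36 (-0.53) passed with array weights and Scarb2 (-0.25) after rescaling to TPM. Among genes that did not pass, the sign turned for Stab1 after quantile normalization (0.0159) and over libraries left out (-0.0434 to 0.0279), for Abca1 (-0.13 to 0.30) and Pparg (-0.20 to 0.0441) over libraries left out, for Pparg with array weights (0.0242), and for Cd5l with the block (0.12) and over libraries left out (-0.24 to 0.0353). The cause of these shifts was not tested.

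Members called numbered 2 (3 after rescaling to TPM, 4 with array weights, 2 to 3 over libraries left out). All genes called numbered 1943, but 3777 with array weights, 932 with a replicate block and 910 to 2532 over libraries left out. Array weights called 7 further scavenger receptors, 6 heme clearance genes, 5 transcription factors and 2 lysosomal genes, in place of 4, 3, 2 and 1. With no filter, 5 lipid handling genes, 1 transcription factor and 0 lysosomal genes were called, and quantile normalization also gave 0 lysosomal genes. The block gave 5 lipid handling genes. Over libraries left out, called genes numbered 4 to 8 for lipid handling, 0 to 4 for transcription factors and 0 to 2 for the lysosomal list. The number of all genes called also changed between settings, so these list counts are not read as results about the lists. Only replicate numbers 2 and 3 occur in both groups, and nothing in the labels pairs them. With the block, the fitted difference therefore rests on replicates 2 and 3 of each group. Vehicle replicate 4 and sulfatide replicate 1 do not enter it. Deviations from the group means correlated at 0.156 for number 2 and -0.303 for number 3. Between differently numbered libraries they ran from -0.399 (vehicle replicate 4, sulfatide replicate 1) to 0.538 (vehicle replicate 3, sulfatide replicate 1). The block changed no call among the 8 members. Of the other genes named, Scarf1, Blvra, Npc2, Dgat2, Vav1 and Cebpb did not pass with it (adjusted p 0.0704 to 0.136).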
